A study of Mus musculus with 4 samples.

Results

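Lymphatic endothelial cells were picked out of mouse skin and buccal mucosa by the transcripts of a pair of genes, Mmrn1 and Lyve1. A cell was taken when it held at least 10 transcripts, at least 1 of them from Mmrn1, at least 3 from Mmrn1 and Lyve1 together, and none from C1qa, a complement gene of macrophages. The rule took 2381 of 426404 cells with at least 10 transcripts, or 0.558%, in 17 tissue sections on 4 slides. Of these, 80 lay in Control skin, 607 in PITX1+ skin, 1351 in buccal mucosa, 67 in a Control wound and 276 in the PITX1+ wounds. The cells were chosen by their Mmrn1, Lyve1 and C1qa counts, so the levels of these genes are given as a description and were not tested.

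Lymphatic vessels take up fluid, large molecules and leukocytes from a tissue and return them to the blood. Their smallest branches are blind-ended capillaries of thin, overlapping endothelial cells with button-like junctions and little basement membrane, and these drain into collecting vessels with valves and muscle. LYVE1 is a hyaluronan receptor that is high in the capillaries and lower in the collecting vessels, and MMRN1 is a secreted glycoprotein of lymphatic endothelium that is also stored in platelets. Both genes have a second source, since some macrophages carry LYVE1 and platelets and the megakaryocytes that shed them carry MMRN1.

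The sections came from Tet-On TRE-Pitx1/Krt5-rtTA mice, in which the Krt5 promoter places the doxycycline-dependent activator in basal keratinocytes, so no lymphatic cell was targeted. The drug was given in the food. PITX1+ mice ate it over a period of 6 weeks that began while the hair follicles were at rest, and the Control group was formed by mice of the same litters that never received it. Buccal mucosa was from untreated mice. Transcripts of 328 genes were read in place on 5 µm paraffin sections of male skin, female skin, buccal mucosa of both sexes, and male skin on day 4 after wounding, with 1 slide for each. The labels give a slide's conditions but not those of its sections, so a section's condition follows from a given rule on its order across the slide, and the labels tie no section to a mouse. The study's own caption counts animals and mucosae in the same numbers as the unwounded sections.

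A check of that order was made on Pitx1 in keratinocyte-marker cells. Levels are given per 1000000 transcripts (CPM). Male keratinocyte-marker cells had 20.2 CPM of Pitx1 in the Control section, against 1185 and 791 in both PITX1+ sections. The wounds had 55.0 CPM in the Control wound against 728 and 424 in the PITX1+ wounds. Female sections assigned to Control had 80.0 and 60 CPM and those assigned to PITX1+ had 31.1 and 63.2, so Pitx1 was not higher there. The 4 female sections are therefore named by the rule alone, and results are given by slide as well. The sections held 136365 to 5581930 transcripts. Buccal section 3 stood apart, with only 3 keratinocyte-marker cells, against 1068 or more in each other buccal section.

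The label was checked against Pecam1 and Cdh5, junction genes of all endothelium that the rule did not use. Of the lymphatic endothelial cells, 52.6% to 65.2% held a transcript of either gene in the Control sections, 48.1% to 81.7% in the PITX1+ sections, 71.3% to 89.7% in the buccal sections and 81.8% to 89.6% in the wounds. Among all other cells of the same sections the shares ran from 6.20% to 39.4%. Cells with a summed Mmrn1 and Lyve1 count of 3, just inside the rule, held either gene in 67.7% of 529 cases, and cells with a sum of 2, just outside it, in 45.5% of 1078. The share was 85.7% above a sum of 3, 75.5% in the 290 cells left out for C1qa alone and 11% in cells with neither Mmrn1 nor Lyve1. The label was thus borne by endothelial genes, less so in the 3 Control sections and in female PITX1+ section 1, the lowest, where a cell had a median of 20.5 to 27 transcripts. Only 10 of 75714 keratinocyte-marker cells met the rule. A single Mmrn1 transcript was less rare in them, in 1.38% to 4.62% of the keratinocyte-marker cells of the female sections, against 0.147% to 0.204% in the male and 0% to 1.13% in the buccal sections, and its part in the counts of the female slide was not tested.

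The balance of Lyve1 to Mmrn1 is given as a description. Lyve1 made up 15.1% to 21.1% of the summed transcripts of both genes in Control skin and 18% to 26.3% in PITX1+ skin. In buccal mucosa it made up 40.4%, 41.2%, 15.2%, 41.2%, 31.3%, 17.5% and 39.5% in sections 1 to 7. In the wounds it made up 31.2% in the Control wound and 47.2% and 52.3% in the PITX1+ wounds. The buccal sections thus spread widely, with sections 3 and 6 at the level of skin. Over all sections, 78.8% of the lymphatic endothelial cells held a Lyve1 transcript.

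Lymphatic endothelial cells were more common in buccal mucosa than in Control or PITX1+ skin. They numbered 4.28 per mm2 of tissue in the male Control section and 6.32 and 3.54 in the female Control sections. In the PITX1+ sections they numbered 5.84 and 17.1 in males and 7.93 and 30.9 in females. In buccal sections 1 to 7 they numbered 158, 47.9, 26.2, 56.6, 123, 43.4 and 183 per mm2. Every buccal section lay above every Control section, and the PITX1+ sections overlapped both groups. Buccal mucosa exceeded Control skin 19.3-fold in mean density (exact permutation test over sections, two-sided p = 0.0167, adjusted p = 0.0477). This is the smallest p that 7 sections against 3 allow when the smaller tail is doubled. PITX1+ sections held 75.7 fewer cells per mm2 than buccal sections (exact permutation test, p = 0.0121, adjusted p = 0.0477). Neither difference passed when the two-sided p was counted by the absolute difference (exact permutation tests, adjusted p = 0.0875 and 0.0795).

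Within each skin slide both PITX1+ sections had a higher density than every Control section of that slide. Over both slides the means were 15.5 ± 11.4 (SD, n = 4) per mm2 in PITX1+ skin and 4.71 ± 1.44 (SD, n = 3) in Control skin. The difference did not pass the exact permutation test (p = 0.114, adjusted p = 0.188, smallest p allowed with the tail doubled 0.0571). Without female PITX1+ section 2 the difference was 5.58 per mm2 in place of 10.7. On each slide the second PITX1+ section exceeded the first by more than the mean difference between the groups.

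As a share of cells with at least 10 transcripts, lymphatic endothelial cells made up 0.181%, 0.219% and 0.161% in the Control sections, with exact binomial 95% intervals that together span 0.0972% to 0.301%. They made up 0.115% and 0.428% in the male and 0.135% and 0.486% in the female PITX1+ sections. In buccal sections the share ran from 0.753% to 3.77%. The first PITX1+ section of each slide lay below every Control section in share while above those of its slide in density, so the direction against Control depended on the denominator (exact permutation test of the share, p = 0.571, adjusted p = 0.63). With 1 section left out at a time the difference in share ran from 0.0387 to 0.162 points, the lowest without female PITX1+ section 2 and the highest without male PITX1+ section 1, around 0.104 with all sections. Buccal sections did not overlap Control sections (exact permutation test, p = 0.0167, adjusted p = 0.0477) or PITX1+ sections (p = 0.00606, adjusted p = 0.0477, exact permutation test), and by the absolute difference neither passed (exact permutation tests, adjusted p = 0.0875 and 0.0742).

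Depth moved with these counts. A median of 20.5 to 27 transcripts was found per lymphatic endothelial cell in the sections of Control skin, of 25 to 45 in those of PITX1+ skin and of 44.5 to 103 in those of buccal mucosa. Cells were then thinned to 20 transcripts, and those with fewer were left out. With medians of 20.5 to 27, this can drop a larger part of the lymphatic cells of Control skin. The shares were 0.0723%, 0.0761% and 0.0826% in Control sections and 0.202% to 1.61% in buccal sections. The groups still did not overlap, and the ratio of the means was 11.4-fold, against 10.2-fold before thinning in all cells with at least 10 transcripts. The p stayed at 0.0167, the smallest allowed with the tail doubled, while the adjusted p was 0.0875 (exact permutation test), with a mean difference of 0.804 percentage points.

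**Figure D1:**
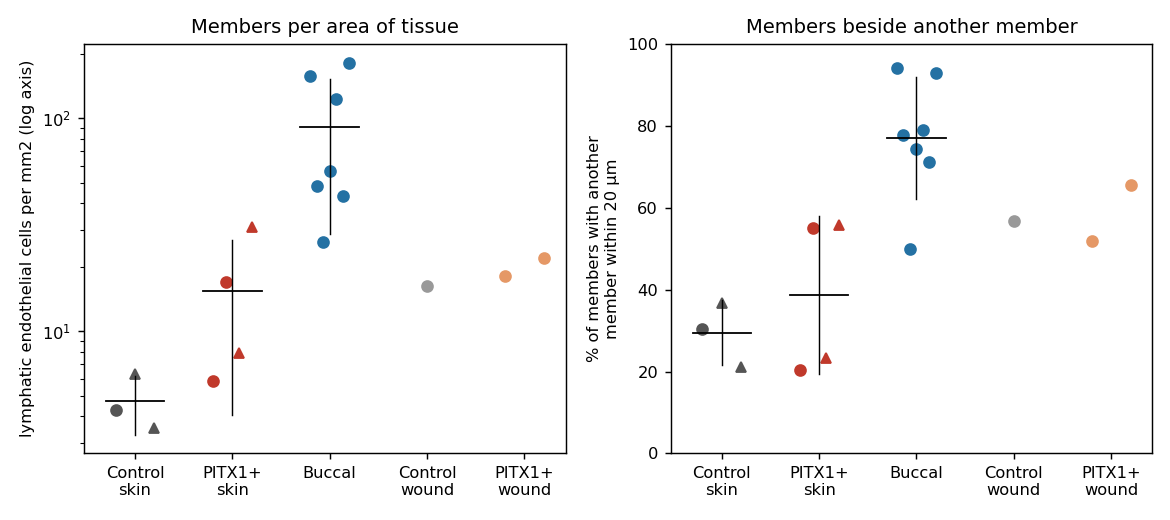
Lymphatic endothelial cells per mm2 of tissue (left, log axis) and the percentage of them with another such cell within 20 µm (right), with 1 point for each section. Circles are the male, buccal and wounded slides and triangles the female slide; black lines are the mean and SD of groups with more than 2 sections. All 7 buccal sections, from 26.2 to 183 per mm2, lie above the 3 Control sections.

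Buccal lymphatic endothelial cells lay side by side. The percentage with another such cell within 20 µm, centre to centre, was 30.4% in the male and 36.8% and 21.1% in the female Control sections. It was 20.5% and 55% in the male and 23.4% and 55.7% in the female PITX1+ sections. In buccal sections 1 to 7 it was 94.1%, 77.9%, 50%, 74.4%, 78.9%, 71.1% and 93.0%. All buccal sections exceeded all Control sections, by 47.6 percentage points in the mean (exact permutation test, p = 0.0167, adjusted p = 0.0477), and PITX1+ sections lay below buccal ones in the mean although those groups overlapped (difference -38.4 points, exact permutation test, p = 0.0182, adjusted p = 0.0477). A denser population has closer neighbours, and how much of this difference came with density was not tested. Chained within 30 µm, the largest run held 91 cells in Buccal section 7, 7 in a PITX1+ section and 4 in a Control section.

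**Figure D2:**
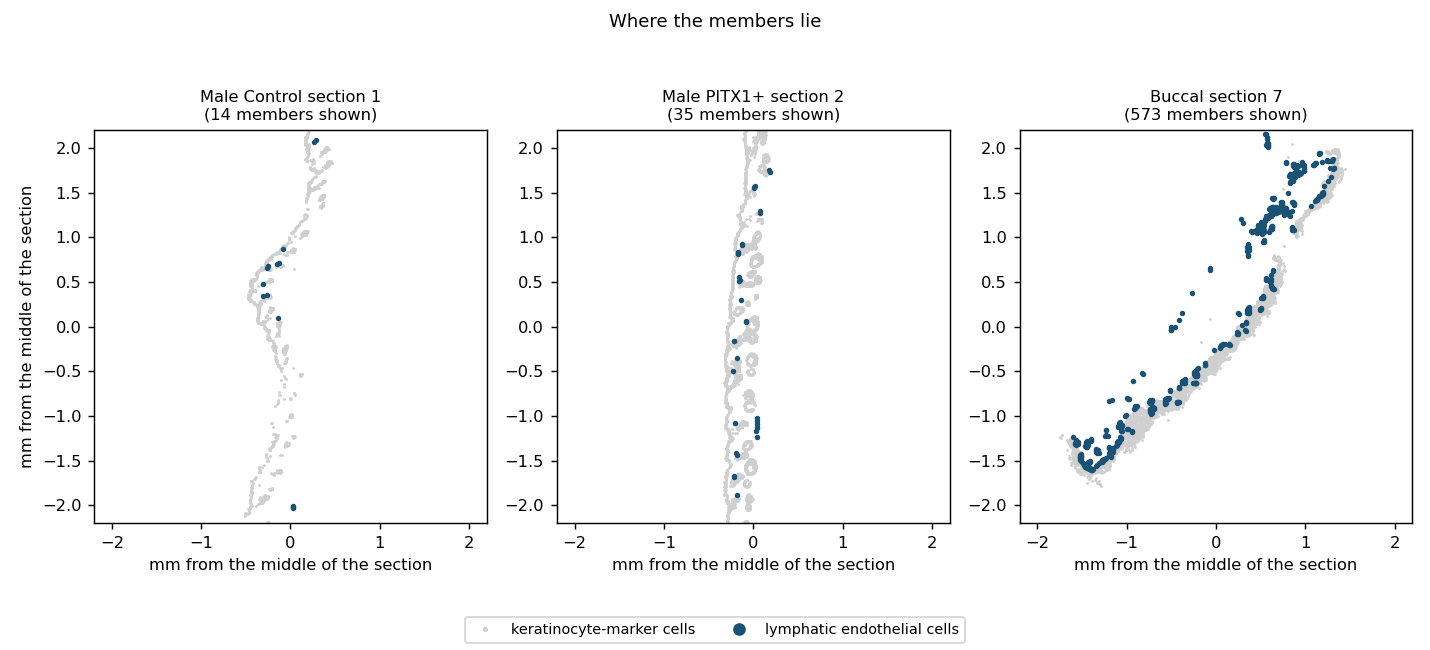
Positions of lymphatic endothelial cells (blue) and keratinocyte-marker cells (grey) in windows of 4.4 mm of a male Control, a male PITX1+ and a buccal section, in mm from the middle of the section and at 1 scale. The windows hold 14, 35 and 573 lymphatic endothelial cells, and the buccal ones lie in lines and clusters.

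The outlines of the cells were also smaller in buccal mucosa than in Control skin. The median outline was 231 µm2 in the male and 230 and 316 µm2 in the female Control sections, 237 and 245 µm2 in the male and 127 and 187 µm2 in the female PITX1+ sections, and 110 to 174 µm2 in buccal sections. Control and buccal sections did not overlap (259 ± 49.4 µm2, n = 3, against 134 ± 21.2 µm2, n = 7; exact permutation test, p = 0.0167, adjusted p = 0.0477). PITX1+ and buccal sections overlapped, and their difference of 65.2 µm2 did not pass (exact permutation test, p = 0.0303, adjusted p = 0.0707). All areas are those of the outlines that the instrument drew around each cell, not stained membranes. Outlines of all other cells were not compared between tissues. Whether the difference is particular to lymphatic cells, or came with how densely all cells lay, was not tested.

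Distances to the epithelium overlapped between groups. The median lymphatic endothelial cell lay 28.4, 20.4 and 39.1 µm from the nearest keratinocyte-marker cell in the Control sections, 26.4 to 65.1 µm in PITX1+ sections and 29.5 to 46.9 µm in buccal sections other than section 3, where it lay 239 µm away. None of these 3 comparisons passed (exact permutation tests, adjusted p = 0.188 to 0.806). A macrophage-marker cell lay within 25 µm of 34.8%, 36.8% and 0% of lymphatic endothelial cells in the Control sections, the last being 0 of 19 cells. The percentage was 26.7% to 65.3% in PITX1+ and 10.7% to 40.8% in buccal sections, and no comparison passed (exact permutation tests, adjusted p = 0.116 to 0.63).

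Among the lymphatic and blood endothelial cells taken by their markers, the lymphatic share was highest in Control skin. Blood endothelial cells were taken by Flt1, a VEGF receptor, and Adgrl4, an adhesion receptor of blood endothelium. These markers took only 31, 19 and 6 of the 12684, 17335 and 11778 cells with at least 10 transcripts in the Control sections. In each of these sections, 6.20% or more of the cells other than lymphatic ones held Pecam1 or Cdh5. The shares below thus cover marker-taken cells alone, and lymphatic shares among all cells with Pecam1 or Cdh5 were not tested. Lymphatic cells made up 42.6%, 66.7% and 76.0% of both kinds in the Control sections, 12.6% and 22.3% in the male and 4.75% and 36.9% in the female PITX1+ sections, and 12.4% to 38.0% in buccal sections. Control sections lay above all others (against buccal, exact permutation test, p = 0.0167, adjusted p = 0.0477; against PITX1+, p = 0.0571, adjusted p = 0.116, the smallest p that 4 against 3 allow). With cells thinned to 20 transcripts the difference between buccal and Control skin shrank from -34.9 to -4.65 percentage points. The female PITX1+ values rest on cells that hardly held Adgrl4. Asking for at least 1 Adgrl4 transcript took their blood endothelial cells from 1545 to 17 and from 625 to 32. Those of the male PITX1+ sections went from 304 to 203 and from 419 to 380. Over the 4 PITX1+ sections of both slides, keratinocyte markers in blood endothelial cells summed to 3885 to 24762 CPM (median 19435) before and 2418 to 20398 CPM (median 9304) after. In the Flt1-marked cells of the wounds the same markers summed to as much as 21472 CPM, and to 3478 CPM or less with Adgrl4 asked for. In the Control sections the same condition took them from 31 to 28 in the male and from 19 to 3 and from 6 to 1 in the female ones, so the female Control shares rest on few blood endothelial cells. With Adgrl4 asked for and the female slide left out, the buccal minus Control difference was -15.9 points, with a single Control section and no test.

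In all, 21 tests were made over sections, of 7 measures in 3 comparisons, and 8 passed an adjusted p of 0.05. These count a two-sided p as the doubled smaller tail, a definition adopted after the values by the absolute difference had been seen. Counted by the absolute difference, 4 passed: the buccal against Control differences in cell area, neighbours and endothelial share, and the PITX1+ against buccal difference in neighbours. Shares and densities of buccal against Control skin then had an adjusted p of 0.0875. Tissue and slide are the same variable in every comparison with buccal mucosa and cannot be told apart.

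The expression of lymphatic endothelial cells was then described as CPM of the 325 genes other than Mmrn1, Lyve1 and C1qa. Vim, the intermediate filament of mesenchymal and endothelial cells, was the most abundant, with a mean of 131125 over unwounded sections. Next came Igfbp5, which binds insulin-like growth factors, at 74159, Col1a1 at 52290, and the protease inhibitor Timp3 at 41715. Tnxb, a matrix tenascin, stood at 25053 and Cdh5 at 23727. These are probe counts, which do not rank genes by molecules, and Col1a1 is a fibroblast collagen that stood at 25210 to 117963 in all other cells of the skin sections.

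Against blood endothelial cells of the same section, lymphatic endothelial cells had their own profile. With both kinds taken by their markers in 13 sections, 84 of 275 genes differed (30.5%), 20 higher (7.27%) and 64 lower (23.3%) in lymphatic cells by edgeR's quasi-likelihood test at an adjusted p of 0.05. The balance turned with the scaling, to 41 higher and 23 lower by library size alone, with a median log2 fold over all genes of 0.32 against -0.27, and DESeq2 gave 38 and 52. Among the 10 largest folds on the lower side were Krt1, Krt16, Krt75, Krt79, Ivl and Flg2, genes of keratinocytes and hair follicles. Keratinocyte markers were also held by the Flt1-marked cells of PITX1+ sections, as given above, and loss on asking for Adgrl4 was largest on the female slide. The comparison was therefore repeated, as a choice made after the values were seen, with at least 1 Adgrl4 transcript asked of a blood endothelial cell and without the female slide. In those 10 sections, 1538 lymphatic cells stood against 3224 blood endothelial cells, and 90 of 204 genes differed (44.1%), 37 higher (18.1%) and 53 lower (26.0%). Scaled by library size alone, 51 were higher and 45 lower, and by DESeq2 63 and 49. Of those 6 genes only Krt79 had enough transcripts to be tested there (log2 fold -0.44, SE 0.88, edgeR adjusted p = 0.72). The values that follow are from these 10 sections.

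Ptn, the secreted growth factor pleiotrophin, was higher in lymphatic cells in 10 of 10 sections. It ranged from 3581 to 19232 CPM with a median of 13370, against 0 to 1842 with a median of 426 in blood endothelial cells. The log2 fold was 4.15 (SE 0.25, edgeR adjusted p = 3.07e-10), and the levels of both kinds did not overlap. Clca3a2, of a family of calcium-activated chloride channel regulators, ranged from 638 to 7212 against 0 to 229, also without overlap (log2 fold 4.14, SE 0.46). Itgb3, the beta chain of a vitronectin-binding integrin, ranged from 3013 to 11101 against 172 to 977 (log2 fold 3.30, SE 0.30), and without the cells that held Pf4, a platelet and macrophage chemokine, the fold was 2.99. These 3 genes marked lymphatic cells in every one of the 10 sections.

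Matrix genes followed. Tnxb had a median of 24779 against 3910 (log2 fold 2.33, SE 0.25, 10 of 10 sections higher). Tgfbi, an adhesive matrix protein, had a median of 12326 against 1813 (log2 fold 2.30, SE 0.23, 10 of 10). Mmp14, a membrane-bound collagenase, had a median of 5831 against 1317 (log2 fold 1.56, SE 0.23, 10 of 10). Fibronectin, Fn1, had a median of 10352 against 4088 (log2 fold 1.02, SE 0.15, 10 of 10). Thbs1, the platelet and matrix protein thrombospondin, had a log2 fold of 1.5 (SE 0.44) that was 0.88 without cells holding Pf4. Of 18 tested genes for matrix, integrins and proteases, 7 were higher and 7 lower in lymphatic cells, against 18.1% higher and 26.0% lower over all genes, with a median log2 fold of 0.04 against 0.06.

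Among the lower genes of that list were integrin chains and a laminin chain. Itga1, the collagen receptor chain, ranged from 785 to 3484 in lymphatic and from 5231 to 8252 in blood endothelial cells (log2 fold -2.38, SE 0.23). Lama5, a laminin chain of endothelial basement membrane, ranged from 0 to 3108 against 3291 to 5534 (log2 fold -2.03, SE 0.29). Both were lower in 10 of 10 sections and did not overlap. Itga6, a laminin receptor chain, was lower in 8 of 10 (log2 fold -0.86, SE 0.25), while Itgb4, its partner chain in epithelia and no member of the list, was higher in 9 of 10 (log2 fold 0.57, SE 0.19).

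Of 20 tested genes of vessel signalling, 5 were higher and 7 lower, against the same 18.1% and 26.0% over all genes. Pdgfb, the ligand by which blood endothelium holds pericytes, had a median of 786 against 5559 and was lower in 10 of 10 sections without overlap (log2 fold -3.54, SE 0.27). Also lower were Bmpr1a, a receptor for bone morphogenetic proteins, at -2.20 (SE 0.26), Id1 at -2.60 (SE 0.43) and Id3 at -1.39 (SE 0.23), targets of that path, and the receptor Bmpr2 at -0.94 (SE 0.17), all as log2 folds. The ligand Bmp4 stood at 0.53 (SE 0.34, edgeR adjusted p = 0.21, 7 of 10 sections higher) and passed by DESeq2 (log2 fold 0.72). Efnb1, an ephrin ligand, was lower at -2.48 (SE 0.28), and the receptor Tgfbr1 at -0.97 (SE 0.24). Higher were Notch2 at 1.21 (SE 0.27), Notch1 at 0.51 (SE 0.16), the ligands Tgfb1 at 0.78 (SE 0.28) and Tgfb3 at 0.67 (SE 0.20), and the coreceptor Tgfbr3 at 0.51 (SE 0.19).

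Single chemokines and growth factor binders differed between both kinds of vessel. Cxcl12, a chemokine that retains leukocytes and progenitors, had a median of 4944 in lymphatic and 28865 in blood endothelial cells and was lower in 10 of 10 sections (log2 fold -2.68, SE 0.20). Ackr1, the chemokine-binding receptor of venules, was lower in 9 of 10 (log2 fold -1.67, SE 0.41), and Cxcl16 in 10 of 10 (log2 fold -1.35, SE 0.34). In this list 3 of 6 tested genes were lower and 0 higher. Igfbp7, a vascular binder of insulin-like growth factors, ranged from 8063 to 34102 against 35322 to 103697 (log2 fold -2.12, SE 0.16). Igfbp5 went the other way, with a median of 105796 against 50044 (log2 fold 1.00, SE 0.20, 10 of 10 higher). Of 10 genes of the insulin-like growth factor system, 2 were higher and 3 lower. Both lists had 50% called, near the 44.1% over all genes.

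Of 6 tested genes for scavenging, 1 was higher and 1 lower, beside 18.1% higher and 26.0% lower over all genes. A list of 6 is too short to be told apart from all genes by such counts. Mrc1, the mannose receptor that both macrophages and lymphatic endothelium carry, was higher in 9 of 10 sections, with a median of 1542 against 252 (log2 fold 2.11, SE 0.39). It was the 1 macrophage gene of 7 tested that was higher, and the fold was 2.15 without cells holding Pf4. Sorl1, a sorting receptor, was lower in 10 of 10 (log2 fold -2.80, SE 0.52). The adhesion gene Nectin2 was higher in 9 of 10, with a median of 5157 against 1159 (log2 fold 1.86, SE 0.24).

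Markers of other cells moved with these results. Of 4 tested blood endothelial markers 3 were lower in lymphatic cells, Vwf (log2 fold -1.87, SE 0.26), Ackr1 and Cd34 (log2 fold -1.59, SE 0.16). The fourth, Ephb4, was not called and had a mean of 10427 CPM in lymphatic cells over unwounded sections. Pecam1 did not pass (log2 fold -0.31, SE 0.15, edgeR adjusted p = 0.10). Cdh5 was lower in 8 of 10 sections (log2 fold -0.55, SE 0.15), though not by library size alone (log2 fold -0.29, edgeR adjusted p = 0.10). Of 6 mural markers 4 were lower, among them Des, the muscle filament desmin, with a median of 26008 against 157240. Of 7 fibroblast markers 3 were higher, Tnxb, Col1a1 (log2 fold 1.24, SE 0.19) and Pi16 (log2 fold 0.88, SE 0.28), and 0 were lower. Over all genes 26.0% were lower and 18.1% higher. Of 4 tested keratinocyte markers 0 were called, with a median log2 fold of 0.60 against 0.06 over all genes. Neighbouring muscle, fibroblasts and keratinocytes can lend transcripts to an outline, and their part in these folds was not tested.

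**Figure D3:**
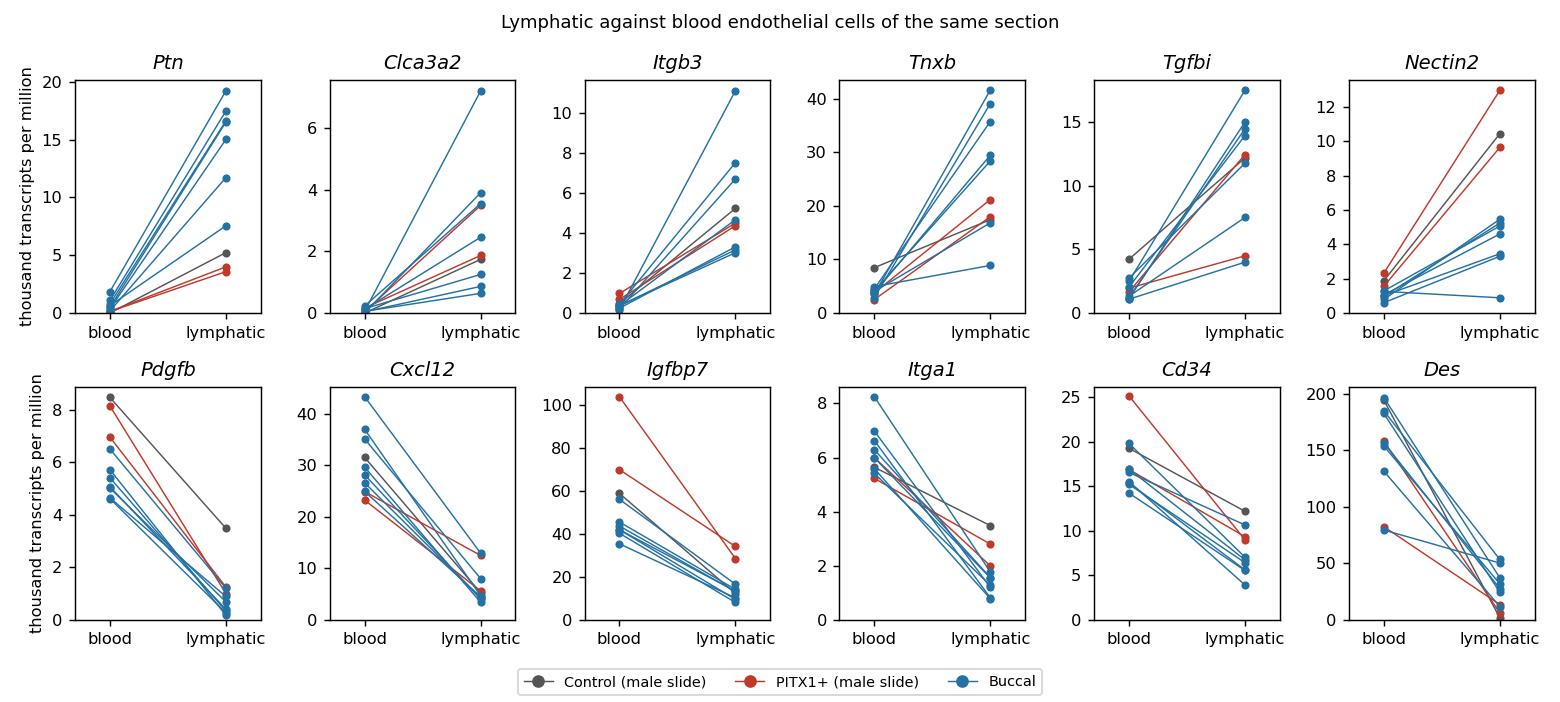
Level, in units of 1000 CPM, of 12 genes in blood (left) and lymphatic (right) endothelial cells of the same section, with 1 line for each of the 10 sections of the male and buccal slides. The 6 upper genes are higher in lymphatic cells in at least 9 of the 10 sections, with Ptn at a median of 426 in blood and 13370 in lymphatic cells, and the 6 lower genes are lower there in all 10.

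Lymphatic cells also lay elsewhere than blood endothelial cells. In these 10 sections they lay closer to the nearest keratinocyte-marker cell in 10 of 10, by 92.4 µm in the mean of section medians (difference -92.4, exact sign-flip permutation test, p = 0.00195, adjusted p = 0.00781). That mean includes Buccal section 3, with 3 keratinocyte-marker cells and a lymphatic median of 239 µm. The middle of the section medians was 31.9 µm for lymphatic and 106 µm for blood endothelial cells. Their outlines were smaller in 9 of 10 (difference -67.6 µm2, exact sign-flip permutation test, adjusted p = 0.0104). More of them had a cell of their own kind within 20 µm, in 9 of 10 sections, by 31.4 percentage points (exact sign-flip permutation test, adjusted p = 0.00781). Asking for Adgrl4 also takes out blood endothelial cells that could be such neighbours. The part of this and of local density in the difference was not tested. The share with a macrophage-marker cell within 25 µm did not pass (difference -0.93 points, exact sign-flip permutation test, adjusted p = 0.834). Over all 13 sections with the wider definition of blood endothelial cells, the differences were -73.7 µm (adjusted p = 0.0166), -53.7 µm2 (adjusted p = 0.0195) and 19.9 points (adjusted p = 0.0505) by the same exact permutation test. There, a distance of 40 µm in place of 20 µm took the last to 4.85 points (exact sign-flip permutation test, adjusted p = 0.616).

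Between PITX1+ and Control skin, no gene passed in lymphatic endothelial cells. Of 59 genes tested in 6 sections with at least 20 such cells, 0 were called by edgeR (0.0%) and 0 by DESeq2, while 6 had an unadjusted p under 0.05 by edgeR. The 2 Control sections in the fit held 23 and 38 such cells, and the lack of calls does not show that levels were alike. Postn, the matrix protein periostin, was at 0 in all 3 Control sections, at 9985 and 3270 CPM in the male and at 2636 and 7071 in the female PITX1+ sections. Its mean in PITX1+ sections was 3.72 times a floor of 3 transcripts in the 1945 of all 3 Control sections. That floor covers counting error in Control alone and not the spread between sections. Postn did not pass in the fit with 2 Control sections (edgeR adjusted p = 0.10). In all other cells of the sections Postn did not separate the groups, at 1705 to 5837 in Control and 2569 to 6403 in PITX1+ sections. Fabp5, a fatty acid carrier of keratinocytes, and Thbs1 had the next lowest p-values, and both were highest in the female PITX1+ sections, where other cells held 22487 and 29087 CPM of Fabp5.

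Igfbp5 and Tgfbi had the lowest p-values on the other side. Igfbp5 stood at 45296 in the male Control section and at 31453 and 32233 in the male PITX1+ sections, and among female sections it stood at 68316 and 76628 in Control against 32683 and 26460 in PITX1+. Every PITX1+ section lay below every Control section, with a log2 fold of -0.83 (SE 0.35, edgeR adjusted p = 0.37). As the gene was picked for its low p and the genes of the 59 that separate so were not counted, this says little. In other cells Igfbp5 was also lower in the female PITX1+ sections, at 4075 and 4175 against 19843 and 16492, while on the male slide they stood at 5469 and 9528 in PITX1+ and 8301 in Control, on both sides of it. Whether the PITX1+ difference was unlike on the male and female slides was tested in 85 genes, with 0 called by edgeR (0.0%) and 4 at an unadjusted p under 0.05. Each slide had 1 Control section in that fit, so the spread came from the 2 PITX1+ sections of each slide alone.

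Buccal and Control lymphatic endothelial cells differed in named genes. Of 134 genes tested in 2 Control and 7 buccal sections, 6 were called by edgeR (4.48%), 4 higher (2.99%) and 2 lower (1.49%) in buccal mucosa. The median log2 fold over all genes tested was 0.71 with TMM scaling, so folds are read against it. Without female Control section 1 a single gene was called, Col1a1, and with transcripts over the nucleus alone 1 was called that was none of the 6. In the cells that held Pecam1 or Cdh5, 8 genes were called, of which Col1a1 alone was among the 6.

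Igfbp3, which binds insulin-like growth factors, stood at 1742 CPM in the male and at 1178 and 0 in the female Control sections. These are 1, 1 and 0 transcripts, so the size of the fold below rests on very few Control counts. It stood at 1498 and 3270 in the male and at 6326 and 3307 in the female PITX1+ sections. In buccal sections 1 to 7 it stood at 20306, 36948, 8437, 22824, 15846, 8113 and 9933, above every skin section (log2 fold 4.03, SE 0.98, edgeR adjusted p = 0.033). All other cells of the buccal sections held 2088 to 4288 CPM and those of Control sections 6166 to 9725, so the order was turned there.

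Ptn stood at 5226, 2356 and 11494 in the Control sections and at 1768 to 6326 in PITX1+ sections. In buccal sections it stood at 19232, 15021, 7549, 16537, 16628, 11719 and 17479. The log2 fold was 2.49 (SE 0.60, edgeR adjusted p = 0.033), with female Control section 2, which had 19 lymphatic cells and was not in the fit, inside the buccal range. In all other cells Ptn ran from 978 to 2339 in buccal and 1824 to 2844 in Control sections. Ptn was both a gene of lymphatic against blood endothelium and one of buccal against Control lymphatic cells.

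Postn ran from 2688 to 5603 in all 7 buccal sections against 0 in the Control sections (edgeR adjusted p = 0.023). Its buccal mean was 2.42 times the same floor of 3 transcripts, which leaves out the spread between sections. Des stood at 1742 and 5889 in the Control sections of the fit and at 22988 in the third, against 11719 to 53349 in buccal sections (log2 fold 3.38, SE 0.71, edgeR adjusted p = 0.021). It ran from 40718 to 56786 in other cells of Control sections and from 20272 to 79823 in other buccal cells. With the third Control section included, Des (adjusted p = 0.075) and Ptn (adjusted p = 0.069) no longer passed by edgeR.

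Col1a1 and Tnc were lower in buccal lymphatic cells. Col1a1 stood at 64460, 74205 and 216475 in the Control and at 57986 to 104129 in the PITX1+ sections, against 5357 to 12620 in buccal sections (log2 fold -2.62, SE 0.32, edgeR adjusted p = 0.00033). In all other cells it ran from 30308 to 117963 in Control and 2146 to 14616 in buccal sections, a gap of the same direction. Tnc, the matrix protein tenascin-C, stood at 3484, 16490 and 0 in the Control sections, so its call rested on female Control section 1, against 0 to 1776 in buccal sections (log2 fold -3.65, SE 0.76, edgeR adjusted p = 0.021). Of the fixed gene lists, the insulin-like growth factor system had 1 gene higher of 9 tested, the mural markers 1 higher of 6, the fibroblast markers 1 lower of 7, and the lists for chemokines, vessel signalling, matrix, stress, cell cycle and scavenging had 0 called. Over all 134 genes 2.99% were higher and 1.49% lower, so a single call in a list of this size says little of the list.

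**Figure D4:**
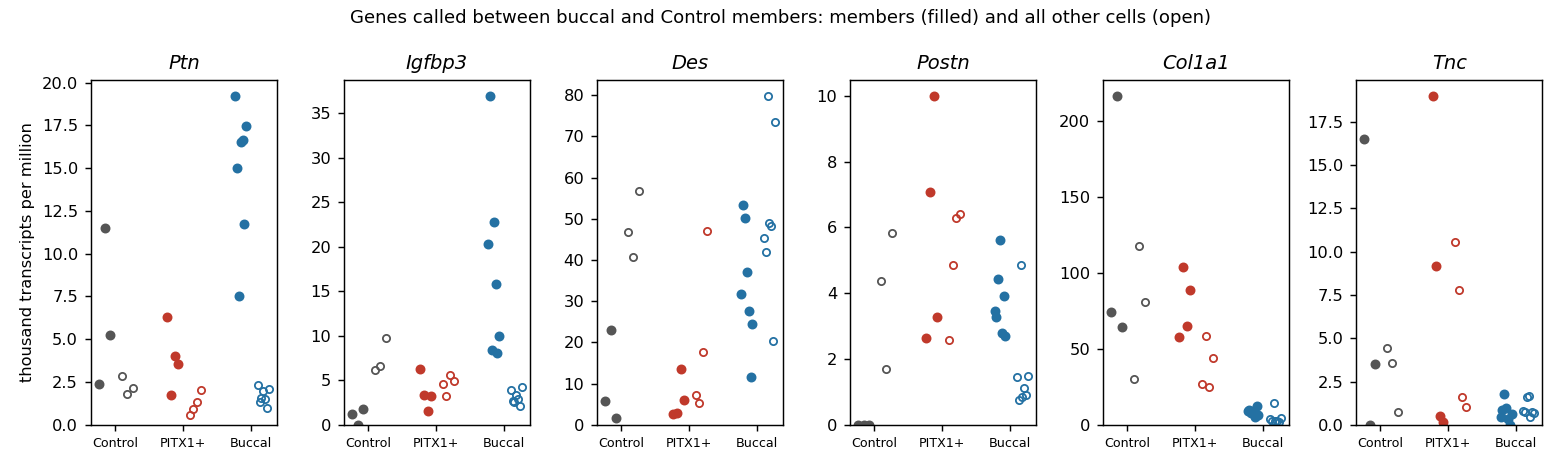
Level, in units of 1000 CPM, of the 6 genes called between buccal and Control lymphatic endothelial cells, with 1 filled point for each section and 1 open point for all other cells of that section. Igfbp3 in buccal lymphatic cells, from 8113 to 36948, lies above every skin section, while Col1a1 is low in buccal sections in both kinds of point.

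Within buccal mucosa, lymphatic cells with and without Lyve1 were set side by side in 5 sections, taking cells with at least 3 Mmrn1 transcripts and no Pf4. There were 798 with Lyve1 and 130 without, with medians of 93 and 77 transcripts a cell, and the genes below were chosen after their values were seen. Tnxb stood at 36639 CPM with Lyve1 and 17016 without, and was higher in 5 of 5 sections. Thbs1 stood at 2707 and 1012, also higher in 5 of 5. Angptl1, an angiopoietin-like secreted protein, stood at 4552 and 1564 and was higher in 4 of 5. Others went the opposite way in 5 of 5 sections: Fn1 stood at 7929 with Lyve1 and 19592 without, the transcriptional regulator Tsc22d1 at 5892 and 19868, Lyz2, a lysozyme of myeloid cells, at 1162 and 4139, and Cd74, a chaperone of antigen presentation, at 738 and 4047. Macrophage genes did not all move alike, as Mrc1 stood at 1326 and 920 and Csf1r, by sections alone, was higher with Lyve1 in 4 of 5. The keratinocyte genes Lor, at 670 and 6255, and Krt4, at 3637 and 10670, were higher without Lyve1 in 2 and 3 of 5 sections. As cells of 1 section share their source, no test was made.

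Of the 2381 cells, 46 held at least 3 transcripts of Pf4, 45 of them in buccal sections (38 in section 7, 5 in section 3 and 2 in section 5) and 1 in a PITX1+ wound. Pf4 is a megakaryocyte, platelet and macrophage gene, and megakaryocytes also carry Mmrn1. Of these cells 37 held Itgb3, 21 held Lyve1 and 39 held Pecam1 or Cdh5. Compared with the cells without Pf4 in the same 3 buccal sections, Tsc22d1 was 27.1-fold, Thbs1 20.2-fold and Itgb3 10.4-fold as high, each in 3 of 3 sections. Vwf at 28766 against 3548 CPM, Itga6 at 21783 against 2928 and Cd44 at 14134 against 1138 were also higher in 3 of 3. Lower were Cdh5 at 5487 against 17236 CPM and Tnxb at 5155 against 30958, both in 3 of 3 sections, and Ptn at 3492 against 18491, in 2 of 3. Genes as unlike as Krt5, Jun and Fabp5 were also lower in 3 of 3. With 5 and 2 such cells in sections 3 and 5, a gene without transcripts there counts as lower wherever the other cells hold it. Counts of sections thus say little here, and the pooled levels rest mostly on section 7. Macrophage genes went both ways, with Mrc1 at 166 against 1188 and Lyz2 at 21949 against 2092. Whether the cells with Pf4 are lymphatic was not tested. In Buccal section 7 the median outline of the cells with at least 3 Pf4 transcripts was 259 µm2 against 116 µm2. These values are a description, and the 6 genes called between buccal and Control cells passed edgeR also without any cell that held Pf4.

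The day 4 wounds held 1 Control section and 2 PITX1+ sections, so they are given as values with exact Poisson 95% intervals, which cover counting error only. Lymphatic endothelial cells numbered 16.4 per mm2 (12.7 to 20.8) in the Control wound and 18.2 (14.99 to 21.98) and 22.2 (18.9 to 25.8) in the PITX1+ wounds. They made up 0.367% (exact binomial 95% interval 0.284% to 0.465%), 0.288% (0.237% to 0.347%) and 0.248% (0.212% to 0.289%) of cells. Both sets of intervals overlapped between the Control wound and each PITX1+ wound. Of 247 genes with at least 10 transcripts, both PITX1+ wounds lay above the interval of the Control wound in 6 and below it in 10, with intervals that did not overlap. In the other 231, at least 1 PITX1+ wound overlapped the Control wound or the PITX1+ wounds lay on opposite sides of it. Those 231 thus include genes in which a single PITX1+ wound may stand apart.

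The 6 higher genes were Fn1, Ccn1, Gpx3, Igfbp3, Thbs1 and Tnc. Fn1 stood at 10547 CPM (7901 to 13796) in the Control wound, at 24605 (21132 to 28485) in PITX1+ wound 1 and at 76100 (71555 to 80857) in PITX1+ wound 2. In all other cells Fn1 stood at 8178, 8802 and 12758 in the same order. Ccn1, a matricellular gene of stretched and growing cells, stood at 2388, 12509 and 8447, with 2361, 3491 and 4021 in other cells. Thbs1 stood at 4179, 12921 and 7938 in lymphatic cells, while in other cells it went the other way, at 9384, 5569 and 4483. Tnc was higher in both PITX1+ wounds in both kinds of cell, at 2985, 9072 and 14856 in lymphatic cells and at 5328, 8989 and 12088 in others.

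Among the 10 lower genes were the matrix genes Col1a1, Col6a1, Lum, Mmp2 and Timp3. Timp3 stood at 29851 (25265 to 35028) in the Control wound and at 18832 (15810 to 22262) and 11943 (10185 to 13917) in the PITX1+ wounds. In all other cells it stood at 3891, 1884 and 892, in the same order. Lum, the fibroblast proteoglycan lumican, stood at 7761, 687 and 1456, with 3879, 2307 and 1923 in other cells. Ccl3, Aldh1a3, Dlx3, Krt75 and Mt4 were the other 5, each with 15 transcripts or fewer in the Control wound. Col1a1 stood at 71642, 13058 and 35756 in lymphatic cells, and at 42190, 26755 and 36083 in others. Markers of other cell types moved with these genes. The 7 fibroblast markers, Col1a1, Col6a1 and Lum among them, summed to 106070 CPM in the lymphatic cells of the Control wound and to 29416 and 51122 in those of the PITX1+ wounds, against 63422, 44331 and 52548 in other cells. The 6 mural markers summed to 7960, 50859 and 7137, with Des at 1393, 46186 and 364, so PITX1+ wound 1 stood apart. Macrophage markers summed to 23093 to 27745 in lymphatic cells and to 55551 to 61236 in others. The part of these markers in the wound values was not tested.

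**Figure D5:**
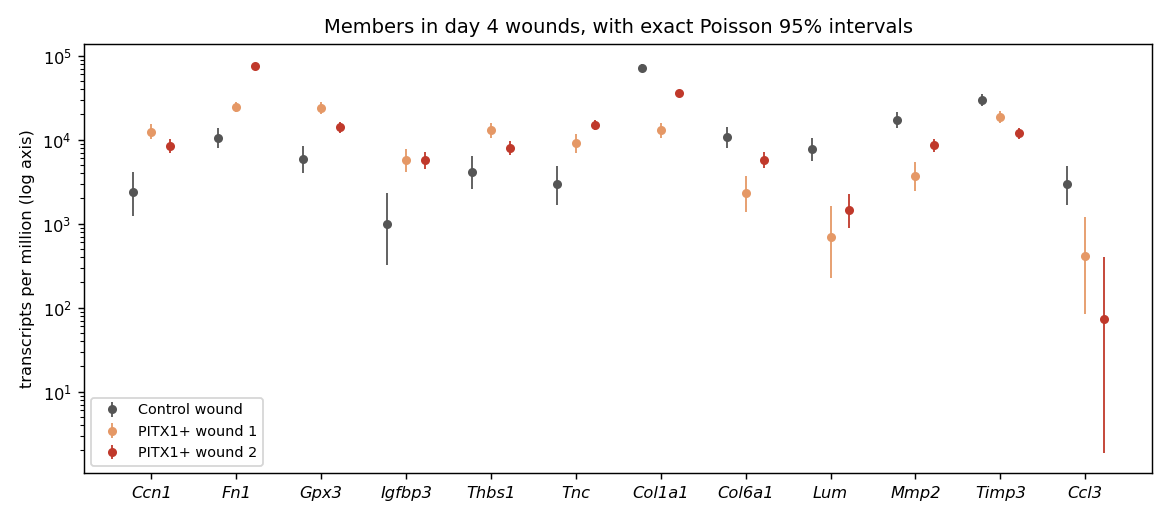
CPM (log axis) of 12 of the 16 genes whose intervals separated both PITX1+ wounds from the Control wound, in lymphatic endothelial cells, with exact Poisson 95% intervals. Fn1 stands at 10547 in the Control wound and at 24605 and 76100 in the PITX1+ wounds, and Timp3 at 29851 against 18832 and 11943.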

How the data were processed

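Gene panel transcripts were imaged with the Xenium In Situ kit on 4 slides, 1 per tissue and sex group, by the authors. The deposited tables list every transcript with its position, cell and quality score, and every cell with its transcript counts, centre and outline area, and the version of the segmentation is not given in the sources used here. Decoded transcripts inside a cell were counted if their quality score was 20 or more, and these counts equalled the deposited counts per cell in 100% of cells. The slides hold 515791 cells in all, 25 cell names are shared between slides, and names were joined with the slide.

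Sections were cells chained within 100 µm (wounds 200 µm) with at least 2000 cells, and conditions followed their order along the slide. Density used the area of 50 µm squares that held a cell. Keratinocyte-marker cells held at least 3 transcripts of Krt5, Krt15, Krt1, Krt4, Trp63 and Col17a1, making up at least 10% of the cell; macrophage-marker cells held C1qa and at least 3 transcripts of C1qa, Mrc1, Csf1r, Pf4 and Ms4a7; blood endothelial cells held Flt1, at least 3 transcripts of Flt1 and Adgrl4, and no Mmrn1, Lyve1 or C1qa.

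Measures were compared over sections by exact permutation tests, with the two-sided p as the doubled smaller tail, adopted after the values by the absolute difference had been seen. Transcripts were summed per section over lymphatic endothelial cells and tested with edgeR 4.0.16 (filterByExpr, TMM, quasi-likelihood, slide or section as covariate, Benjamini-Hochberg) in R 4.3.3, without the genes of the rule, in sections with at least 20 such cells (at least 10 of both kinds against blood endothelial cells). DESeq2 1.42.0, other scalings, filters, thinning and left-out sections were alternatives. Genes were named if they were markers, among the 20 most abundant, among the 10 (blood) or 8 largest folds in a direction, or called members of fixed lists. Outside these rules, genes of PITX1+ against Control were named by their lowest p-values and those of the wounds by intervals that did not overlap. Genes of the Lyve1 and Pf4 splits and some others were picked from their values. The edgeR step was tested on simulated data with 60 changed genes. Labels name no animal per section, so p-values measure only the spread between sections. The cells, lists and comparisons were chosen with earlier results of these data known.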

Additional observations from a re-analysis of the deposited data

Results flagged for a closer look

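In Buccal section 3 the median lymphatic endothelial cell lay 239 µm from the nearest keratinocyte-marker cell, far from the 29.5 to 46.9 µm of the other 6 buccal sections. It was the 1 value found among 20 groups of sections looked at for a sample far from the rest, and chance alone gives about 1 in 20. The section held 3 keratinocyte-marker cells and 28 lymphatic endothelial cells.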

How the results depend on the processing

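Directions held in most alternatives, while adjusted p-values over sections lay near the threshold. Without any 1 Control section, buccal against Control could not go below p = 0.0556 by the exact permutation test with the smaller tail doubled. Under that definition its calls were bound to be lost, and their loss says nothing of stability. Without Buccal section 3 the adjusted p was 0.0625 in every comparison that had passed, and PITX1+ against buccal had 0.05 to 0.131 without any 1 PITX1+ section (exact permutation tests). The mean differences were buccal minus Control 1.70 to 1.84 points in share, 85.8 to 97.2 per mm2, -44.5 to -27.8 points of endothelial cells, -140 to -96.7 µm2 and 43.4 to 52.1 points in neighbours, and PITX1+ minus buccal -1.74 to -1.55 points, -86.5 to -72.5 per mm2 and -44.1 to -32.4 points in neighbours. Among differences that had not passed, the macrophage share of buccal minus Control turned from -7.11 to 11.3 points and the distance of PITX1+ minus buccal from -33.7 to 3.20 µm. No gene fit with a sum of at least 5 Mmrn1 and Lyve1 transcripts was possible for skin, since no Control section kept 20 cells. Slide was a covariate of the skin gene fit (0 genes called without it), and both kinds of endothelial cell were compared within sections. By the replicate numbers of the labels no paired analysis was possible because each slide is the only one of its group, and the shared number 1 names single slides.

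Thinned to 20 transcripts, where the ratios of buccal to Control were 11.4-fold in share and 27.4-fold in density at an unchanged p of 0.0167, differences no longer passed after adjustment for buccal minus Control (0.804 points in share, 39.4 per mm2, -4.65 points of endothelial cells) and PITX1+ minus buccal (-0.762 points, -35.1 per mm2). The endothelial share of buccal minus Control also failed with at least 20 transcripts per cell (-27.6 points), with nuclear transcripts alone (-22.4) and, chosen after seeing the data, in cells with Pecam1 or Cdh5 (-26.4); with Adgrl4 asked for it was -15.9, and -24.2 for PITX1+ minus Control. With the two-sided p from the absolute difference, the definition first computed and then replaced by the doubled tail, the differences of 1.72 points, -1.61 points, 86.4 per mm2 and -75.7 per mm2 did not pass. The area of PITX1+ minus buccal passed with a sum of at least 5 (103 µm2) and in cells with Pecam1 or Cdh5 (72.7 µm2), as did the distance of buccal minus Control (51.1 and 44.5 µm). Against blood endothelial cells with sums of at least 5, area (-62.6 µm2) and distance (-46.5 µm) did not pass; with Adgrl4 asked for, neighbours did (31.4 points, and 35.5 on the buccal slide), and the macrophage share turned to -0.93 points.

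The count of genes called between buccal and Control cells was 10 by library size alone, 19 by DESeq2, 16 without a filter, 17 at any quality, 10 with all sections, 1 with nuclear transcripts and 1 to 13 with a section left out; the cause was not tested. Of the 6 genes, all 6 were among those by library size, DESeq2 and no filter, 2 at any quality, 3 with all sections, 0 with nuclear transcripts and 1 in cells with Pecam1 or Cdh5. Between PITX1+ and Control it was 1 by library size and 0 to 3 with a section left out, the 3 without male PITX1+ section 2. Against blood endothelial cells it was 27 with Adgrl4 asked for and the male slide alone, in 3 sections and 99 genes. By library size the 13 sections gave 41 higher and 23 lower, against 20 and 64. Among single genes Krt1 (0.52) and Krt75 (0.36) turned by DESeq2, as did Krt79 (0.65) with Adgrl4 asked for.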
